A study of Mus musculus with 57 samples.

Results

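Of the 44776 genomic regions that GATA6 occupied in both replicates 2 h post Dox, 10087 held no peak of NANOG or SOX2 either before induction or at 2 h. These 10087 regions, 22.5% of all GATA6 2 h regions, are described here and called members. They were chosen by peak calls of this series: peaks of both GATA6 2 h lists were merged where they overlapped, regions with a peak of each list were kept, and regions overlapping by 1 bp any peak of the 8 NANOG and SOX2 lists at 0 and 2 h were removed. The remaining 34689 regions, called other regions, serve as the comparison. Of these, 18923 held NANOG or SOX2 already at 0 h and 15766 held either factor at 2 h only.

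GATA6 is a zinc finger transcription factor that binds the GATA sequence and drives the primitive endoderm (PrE) fate. NANOG, a homeodomain factor, and SOX2, an HMG box factor, maintain the alternative epiblast (Epi) state, in which mouse embryonic stem (ES) cells are held in culture. GATA4, a paralogue of GATA6, and SOX17, which is a SOX factor like SOX2, act in cells that have taken the PrE path.

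The cells were KH2 mouse ES cells, labelled as C57BL/6, with a GATA6 transgene under a doxycycline-responsive promoter (TRE:GATA6-DsRed2). All groups carried this transgene, and cells at 0 h were its uninduced control, kept in 2i medium. The induced groups were in serum medium with doxycycline for up to 12 h and without it later, so a difference from 0 h includes the change of medium. Binding was mapped by CUT&RUN, in which an antibody directs a nuclease to the sites of a protein and the released DNA is sequenced. Each group had 2 replicate lists. GATA6 was mapped at 0, 2, 4, 8 and 48 h post Dox, both Epi factors at the 4 times from 0 to 8 h, and GATA4 with SOX17, the factors of PrE cells, at 24 h. The GATA6 lists recorded for 4, 8 and 48 h carry the file names and peak names of 48, 4 and 8 h, and the times in the file names are used throughout. Which of them is right is not known, and each statement on GATA6 at 4, 8 or 48 h rests on the file names.

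The study lists read totals in its supplement, but these were not used here. Depth was judged by the fragments covering a background base, which the fold and p-value columns imply. Both GATA6 2 h lists were deep, at 1.34 and 1.11 fragments, and the NANOG lists of the rule had 0.902 to 1.31, but its SOX2 lists had only 0.416 to 0.692. The later GATA6 lists had 0.928 to 1.29, the later NANOG lists 0.865 to 1.3, the later SOX2 lists 0.290 to 0.514, and the GATA6 0 h lists, with 86 and 882 peaks in all, 0.287 and 0.315. The absence of a SOX2 peak therefore came from shallower libraries than the absence of a NANOG peak, and the part of depth in membership was not tested.

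The sequence of 5 members around the GATA6 summit is shown because they stand for the classes that the results turn on. The classes are the strongest members, a member also bound by the PrE factors, a member without a GATA6 peak at 4 h or later, and a member with a tandem GATA repeat. Each run covers 300 bases of GRCm38.p6 on the plus strand, 5′ to 3′, starting 150 bp before the summit of the strongest GATA6 2 h peak. Capitals mark the word AGATAA, its variant AGATAG, the word TGATAA or its variant TGATAG on either strand, called GATA matches below.
Cd180 intron (chr13:102700520-102700819), strongest member: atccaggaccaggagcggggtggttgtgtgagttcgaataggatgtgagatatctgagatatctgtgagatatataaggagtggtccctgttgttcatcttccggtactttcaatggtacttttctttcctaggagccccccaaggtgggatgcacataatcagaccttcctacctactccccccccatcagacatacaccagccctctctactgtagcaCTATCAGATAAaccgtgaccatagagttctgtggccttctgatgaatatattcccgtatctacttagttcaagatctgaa
G3bp1 coding exon (chr11:55497844-55498143), strong member without a match: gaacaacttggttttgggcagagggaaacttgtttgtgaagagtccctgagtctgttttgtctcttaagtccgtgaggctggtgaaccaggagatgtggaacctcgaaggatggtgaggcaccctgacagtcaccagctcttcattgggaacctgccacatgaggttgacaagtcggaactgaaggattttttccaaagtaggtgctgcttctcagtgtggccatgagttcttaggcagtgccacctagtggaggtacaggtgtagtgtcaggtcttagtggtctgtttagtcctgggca
Upstream of Rcor1 (chr12:111028462-111028761), all PrE factor lists: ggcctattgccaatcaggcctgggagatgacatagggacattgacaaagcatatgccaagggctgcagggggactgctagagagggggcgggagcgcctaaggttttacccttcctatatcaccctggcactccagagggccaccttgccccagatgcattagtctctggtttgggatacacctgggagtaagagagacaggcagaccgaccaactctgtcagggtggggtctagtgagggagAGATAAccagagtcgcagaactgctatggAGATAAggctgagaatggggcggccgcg
Near Lsm6 (chr8:78802411-78802710), no later GATA6: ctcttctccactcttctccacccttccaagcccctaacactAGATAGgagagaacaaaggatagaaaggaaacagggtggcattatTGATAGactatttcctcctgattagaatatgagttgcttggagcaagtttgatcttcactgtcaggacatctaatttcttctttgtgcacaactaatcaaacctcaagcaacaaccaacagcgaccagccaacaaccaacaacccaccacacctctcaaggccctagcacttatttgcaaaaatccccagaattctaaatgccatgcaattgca
Upstream of Zfp827 (chr8:79017680-79017979), tandem repeat: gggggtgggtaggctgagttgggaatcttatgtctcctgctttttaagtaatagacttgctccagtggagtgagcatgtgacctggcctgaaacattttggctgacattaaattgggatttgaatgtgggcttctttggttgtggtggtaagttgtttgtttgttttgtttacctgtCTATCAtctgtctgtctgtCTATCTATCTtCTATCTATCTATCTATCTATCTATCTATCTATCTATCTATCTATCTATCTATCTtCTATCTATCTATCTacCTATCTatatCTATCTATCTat
The Cd180 run held 2 overlapping matches, centred 73 and 78 bp from the summit. The G3bp1 run held none, although its peak region of 806 bp held 4 farther out. Both matches upstream of Rcor1 were AGATAA, at 96 and 125 bp. The run upstream of Zfp827 held 22 matches, the first of them 30 bp from the summit, most of them in an unbroken array of 13 CTAT units.

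The values that chose the members are given as a description. Fold is the authors' enrichment of a peak's summit over its local background, and a region takes its highest fold in each list. The mean GATA6 2 h fold of the members had a median of 5.29, with 5% of members below 3.58 and 5% above 9.88. In the other regions the median was 7.77, and 5% of them lay above 25.7. The highest member reached 33.7 and the highest other region 132. Members were thus mostly weak GATA6 sites, and they were narrower, with a median width of 490 bp against 742 bp. Fold and p-value gave the number of fragments stacked at each member's summit, with a median of 14 in replicate 1 and 12 in replicate 2. At the background coverage of these lists a peak needed at least 6 fragments.

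The boundary of the rule was not sharp. A NANOG or SOX2 peak of the rule lay within 100 bp of 246 members without touching them, while 410 other regions overlapped such a peak by at most 100 bp. The median GATA6 2 h fold was 4.90 for these members and 4.74 for these other regions. A single list of the 8 removed 6933 regions, 20.0% of the other regions. Among these, 3111 were removed only by NANOG 2 h replicate 1 and 2033 only by SOX2 2 h replicate 2, each the longer list of its group.

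What the members shared in sequence was examined first, since the rule used no sequence. GATA matches lay within 100 bp of the summit in 65.7% of members (95% Wilson interval 64.7 to 66.6, counting error only) and in 54.1% of all GATA6 2 h regions. The share was 63.2% in regions that held NANOG or SOX2 at 2 h only and 40.4% in regions that held either at 0 h. Members had 1.5 ± 2.83 matches per window (SD over regions) and other regions 0.808 ± 1.42. Because members were weaker sites, other regions were also weighted to the members' distribution over 5 bins of equal number by GATA6 2 h fold. So weighted, 43.3% of other regions held a match, further below the members. Sequence has no replicates, so none of these shares was tested.

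The mix of match forms, pooled over windows, also differed. AGATAG made up 41.5% of all matches in member windows and 27% in windows of other regions, while AGATAA made up 33.9% and 39.6%, TGATAA 14.5% and 21.3%, and TGATAG 10.1% and 12.2%. Tandem GATA arrays, in which AGATAG recurs with every unit, are described further on. They occurred in 6.02% of members and in 1.51% of other regions. Windows with many matches weigh more in these shares. The mix was not counted without arrays, so their part in the difference was not tested.

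The matches did not sit at the summit itself. In members 44.9 matches per 1000 regions fell in the 10 bp bin at the summit, against a mean of 100.2 between 70 and 120 bp to either side and of 31.3 between 400 and 500 bp. Other regions had 20.5 at the summit, 52.5 between 70 and 120 bp and 21.0 between 400 and 500 bp. Members without a tandem repeat nearby had 34.5, 59.6 and 19.8. The share of members with a match was 35% within 50 bp and 90.5% within 250 bp, and over all GATA6 2 h regions 26.0% and 81.4%.

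**Figure D1:**
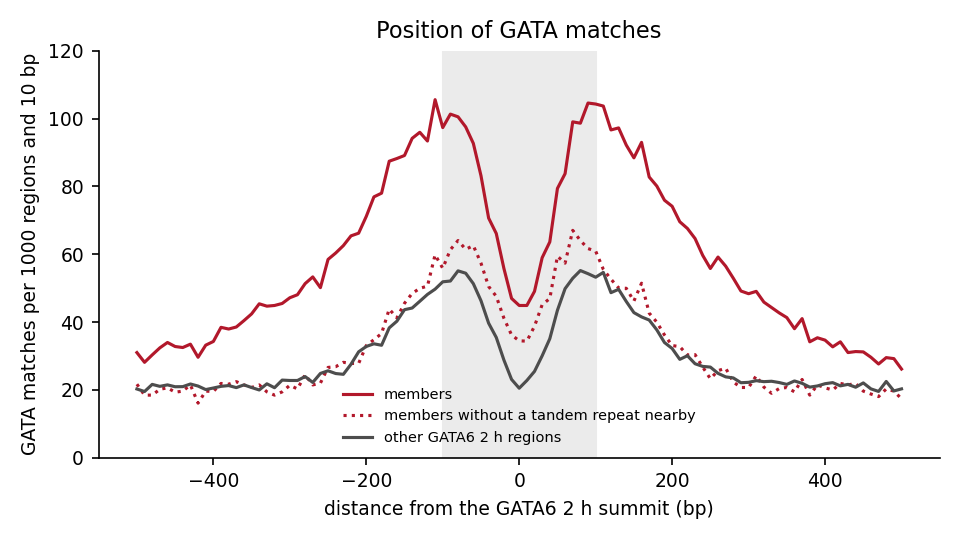
Number of GATA matches per 1000 regions in 10 bp bins (vertical axis) against the distance of their centre from the GATA6 2 h summit in bp (horizontal axis), for members, members without a tandem repeat nearby, and other regions. Grey shading marks the 100 bp on each side used for counting. All lines are lower at the summit than near 100 bp from it, and members lie above other regions.

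Words for other factors were counted in the same windows on both strands. The SOX words ACAAAG and ACAATG, bound by SOX2 and SOX17 alike, occurred in 27.5% of members against 34.0% of all regions. The octamer ATGCAAAT of the POU factor OCT4, the partner of SOX2, occurred in 2.02% against 2.93%. The word TGANTCA, bound by AP-1 (the FOS and JUN factors that respond to growth signals), occurred in 10.5% of members against 14.6% of all regions. Regions with NANOG or SOX2 at 0 h had 10.3% and regions with either at 2 h only 22.4%. Shares in members and in all regions were 13.2% and 15.2% for TEAD (GGAATG) and 11.6% and 13.1% for KLF factors (GGGTGNGG). They were 3.32% and 3.62% for the orphan nuclear receptors ESRRB and NR5A2 (CAAGGTCA), and 2.94% and 3.05% for forkhead factors (TGTTTAC).

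Position in the genome set the members less apart. Their summit lay within 5 kb of a protein-coding transcription start site (TSS) in 21.2% of cases (95% Wilson interval 20.4 to 22.0), against 22.3% of all GATA6 2 h regions. Within 1 kb of a TSS were 801 members (7.94%), against 11.0% of all GATA6 2 h regions. The share was 16.9% in regions with NANOG or SOX2 at 0 h and 6.03% in regions with either at 2 h only. Of the remaining members, 359 lay in exons (3.56% of all members, against 3.26% of all regions) and 4947 in introns (49.0%, against 45.6%). The last 3980 lay between genes (39.5%, against 40.1%). Median GC content of the window was 46.8% in members and 47.3% in all regions. The next GATA6 2 h region was a median of 5.28 kb away from members and 5.57 kb over all regions. Within 50 kb of a TSS lay 6911 members, which had 4720 different genes as their nearest. Counted over all genes and named after the counts were seen, the most members, 14 of 31 regions, lay near Aff1, which encodes a scaffold of transcription elongation, followed by 12 of 23 near Klf5 and 11 of 28 near Lamc1, a laminin subunit gene of basement membranes.

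GATA6 peaks at other times were counted on members in lists that the rule had not used. Before induction, members held almost no GATA6: none of them had a peak in 0 h replicate 1 and 3 had one in replicate 2. At 4 h 58.5% and 65.1% of members held a peak (replicates 1 and 2), at 8 h 41.8% and 44.2%, and at 48 h 5.59% and 7.36%. These are means of 61.8% ± 4.68, 43.0% ± 1.73 and 6.47% ± 1.25 (SD, n = 2 lists), and no 2 time points overlapped. The time points differed by more than the replicates (F = 263, exact permutation p = 0.00952, two-sided, the smallest that 8 lists allow, adjusted p = 0.0190 over 4 tests). The test includes the 0 h lists, taken before induction, whose 86 and 882 peaks could cover few of the members. Members were chosen for GATA6 at 2 h, so a difference of later times from 0 h was largely set in advance. No test was run on 4, 8 and 48 h alone. The 0 h lists were the shallowest GATA6 lists, and the part of depth in the 0 h shares was not tested. Length also differed between the later lists, with 47894 and 54281 peaks at 4 h, 28676 and 30234 at 8 h, and 5933 and 9767 at 48 h. Other regions fell in the same order, with means of 76.4%, 46.1% and 8.79%. The part of list length in the fall was not tested, and the p-value does not measure how long GATA6 stayed on members.

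Members with a peak of both lists numbered 5100 at 4 h (50.6%, against 63.8% of all GATA6 2 h regions), 3561 at 8 h (35.3%, against 38%) and 452 at 48 h (4.48%, against 5.71%). No later GATA6 list had a peak in 2453 members, 24.3%, as compared with 14.1% of other regions. The strongest of these had a GATA6 2 h fold of 14.2 ± 2.11 (SD, n = 2) and lay 10653 bp from the TSS of Lsm6, an RNA processing gene. None of the 20 lists outside the rule had a peak there. GATA6 in both 4 h and both 8 h lists and in no 48 h list was found on 2655 members, 26.3%, close to the 27.8% of all GATA6 2 h regions. All 6 later lists held 374 members, 3.71%, against 5.18% of all regions.

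In each later GATA6 list fewer members than other regions held a peak. The difference was -15.0 and -14.0 percentage points at 4 h, -2.98 and -3.33 at 8 h, and -2.0 and -2.63 at 48 h (mean -6.67 ± 6.11, SD over 6 lists, exact sign-flip permutation p = 0.0312, two-sided, the smallest possible, adjusted p = 0.0417). This order depended on peak strength and was reversed among regions of like GATA6 2 h fold. Within the 5 bins of fold, members exceeded other regions by 4.74 and 2.87 points at 4 h, by 18.2 and 17.3 points at 8 h and by 2.03 and 2.09 points at 48 h (mean 7.86, exact sign-flip permutation p = 0.0312). The surplus at 8 h was present in every bin. In the middle bin, with folds from 6.12 to 7.99, 58.0% and 61.5% of members and 33.1% and 36.3% of other regions held GATA6 at 8 h. At 48 h members were above other regions in the 4 weaker bins and below them in the strongest, where 11.8% and 17.3% of 220 members and 17.6% and 21.1% of 8737 other regions held a peak. Within bins, members also exceeded regions with NANOG or SOX2 at 2 h only, by 13.6 and 13.9 points at 8 h.

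**Figure D2:**
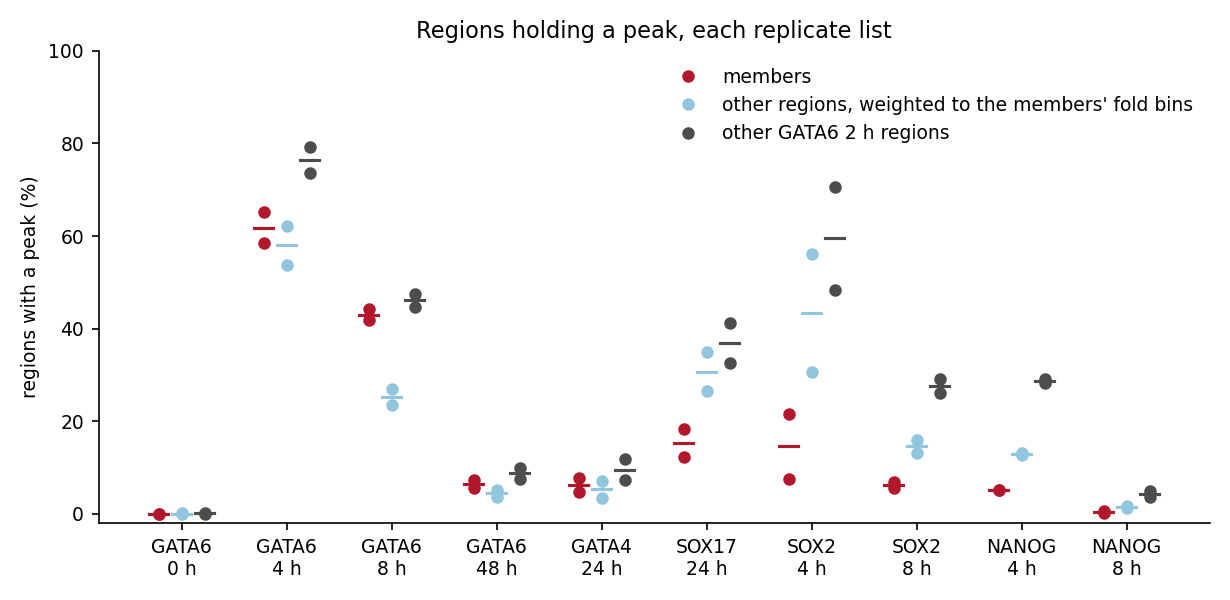
Percentage of regions with a peak (vertical axis) in each replicate list of the factor and time named below (points, short lines at the mean), for members, other regions, and other regions weighted to the members' 5 bins of GATA6 2 h fold. At GATA6 8 h the members (41.8% and 44.2%) lie below other regions but above the weighted ones (23.6% and 26.9%), and at SOX17 and SOX2 they lie below both.

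**Figure D3:**
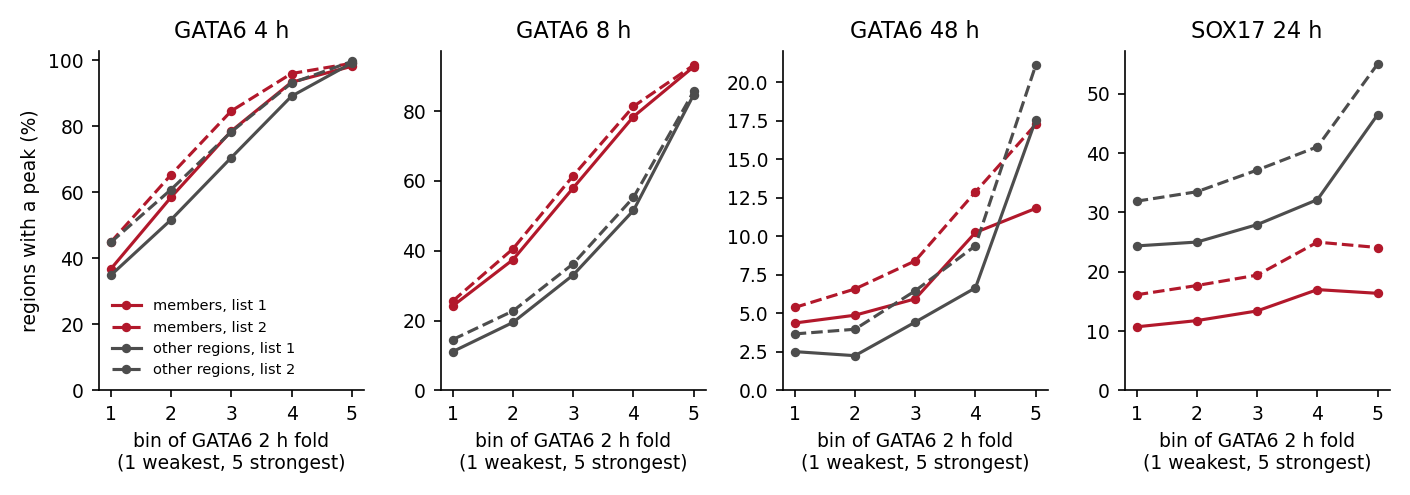
Percentage of members and other regions with a peak (vertical axes, scaled per panel) across 5 bins of equal region number by mean GATA6 2 h fold (horizontal axes), with a line for each replicate list. At GATA6 8 h both member lines lie above both other lines in each bin, and at SOX17 both lie below.

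Among members, GATA6 peaks at 4 and 8 h were more frequent where there were more GATA matches. The shares by number of matches include tandem arrays. They were counted in members only, so it is not known whether other regions show the same. The share with a GATA6 8 h peak in both lists was 23.4% of 3463 members without a match, 31.7% of 3572 with 1 match, 43.1% of 1809 with 2 and 67.7% of 1243 with 3 or more. For 4 h these shares were 39.8%, 46.9%, 58.5% and 79.3%, and for 48 h 2.89%, 4.48%, 6.25% and 6.36%. Median 2 h fold also rose along this order, from 5.00 to 5.85. Within the fold bins, members with a match exceeded members without one by 15.0 and 13.2 points at 8 h in replicates 1 and 2, and by 13.5 and 11.9 points once tandem repeats were left out. SOX17 showed no such climb, at 10.0% of members without a match and 7.08% with 3 or more.

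**Figure D4:**
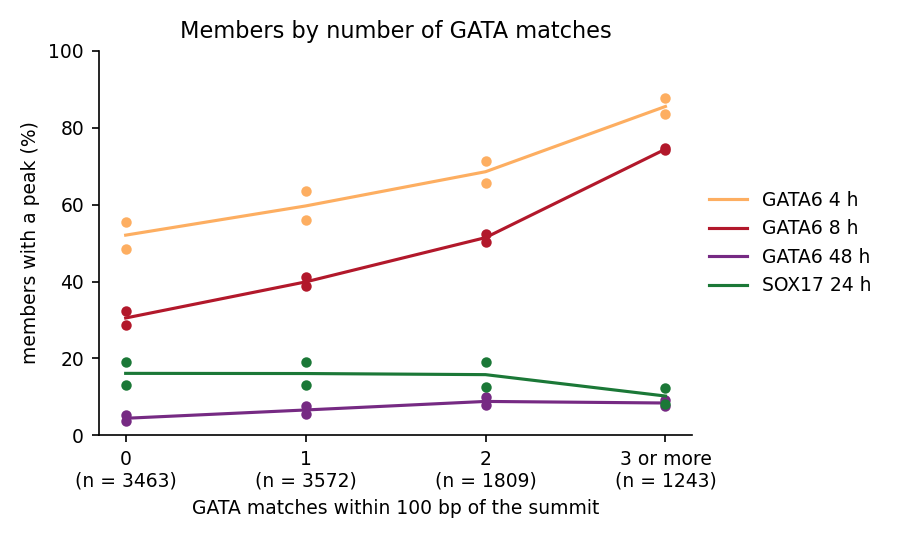
Percentage of members with a peak (vertical axis) by number of GATA matches within 100 bp of the summit (horizontal axis, number of members in brackets), for GATA6 at 4, 8 and 48 h and SOX17 at 24 h. Points are replicate lists and lines their mean. GATA6 at 4 and 8 h climbs with the number of matches.

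Members at promoters differed from the rest of the members. Within 1 kb of a TSS 44.8% of 801 members held a GATA match, against 67.3% of intronic and 68.1% of intergenic members. GATA6 was present in both 8 h lists on 18.5% of promoter members, and on 37.0% of both intronic and intergenic ones, while exonic members had 31.5%. SOX17 did not follow this order, with 12.6% of promoter members and 9.42% of intronic ones. Median 2 h fold was 4.93 at promoters and 5.29 in introns, and its part in the lower GATA6 share was not tested. These shares were counted in members only, so it is not known whether promoter regions among other regions were alike. Members with an AP-1 word also held less GATA6 later than members without one. At 8 h 22.2% of these 1062 members had GATA6 in both lists, against 36.8% of those without the word. GATA4 was on 10 of the 1062 (0.942%, against 4.27%). Over all GATA6 2 h regions, with or without the word, 38% held GATA6 at 8 h and 5.55% GATA4 in both lists. The word was compared in this way in members only, and the part of 2 h fold and GATA matches was not tested.

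Members that kept GATA6 had a different course of enrichment than other regions that did. In the 374 members with GATA6 in all 6 later lists, the median fold was 6.50 and 5.73 at 2 h (replicates 1 and 2), 7.71 and 9.03 at 4 h, 8.41 and 9.45 at 8 h, and 7.52 and 7.41 at 48 h. In 1947 other regions it was 17.1 and 14.2, 14.0 and 17.6, 11.8 and 13.3, and 7.25 and 7.20. Medians of both classes lay apart at 2 h, a difference that the choice of members carries, and close together at 48 h. Folds depend on the background of each list and were not tested between times.

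A set of members held arrays of the GATA unit itself. At least 5 GATA units in a row occurred in 607 members (6.02%) and in 525 other regions (1.51%), or 2.53% of all GATA6 2 h regions. The longest array in a member had 26 units. GATA6 was on 95.1% and 97.2% of these members at 4 h and on 90.1% and 89.5% at 8 h, but on 3 and 6 of the 607 at 48 h (0.494% and 0.988%). GATA4 had a peak on 3 and 1 of them, and SOX17 on 12 and 17. Members without an array held GATA6 in 5.92% and 7.76% of cases at 48 h, GATA4 in 8.23% and 5.01%, and SOX17 in 13.0% and 19.3%. A like GATA6 course was seen in other regions with an array, so it was not particular to members. Of these other regions 97.5% held GATA6 in both 4 h lists, 88.8% in both 8 h lists and 4% in both 48 h lists. In members with an array these shares were 94.2%, 84.8% and 0.329%. NANOG was in both 4 h lists on 56.6% of other regions with an array and on 17.8% of such members. The median GATA6 2 h fold was 6.62 in array members, above the 5.29 of all members and below the 13.4 of other regions with an array. Whether these differences in fold had a part in the GATA6 shares at 4 and 8 h or in the NANOG shares was not tested.

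**Figure D5:**
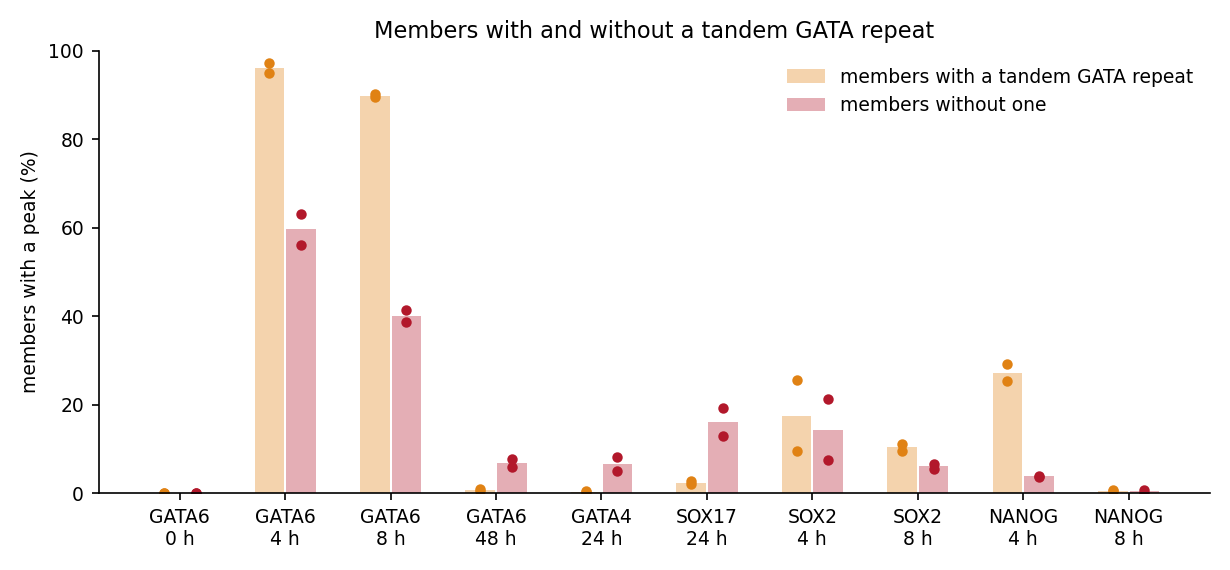
Percentage of members with a peak (vertical axis) in the lists of each factor and time (horizontal axis), for 607 members with a tandem GATA repeat and for the members without one. Bars are the mean of 2 replicate lists and points the lists. Repeat members exceed the rest at GATA6 4 and 8 h and NANOG 4 h and are near 0 at GATA6 48 h and GATA4.

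The 3 strongest array members lay between genes. The first, 10607 bp upstream of the zinc finger gene Zfp827, had an array of 13 units and a GATA6 fold of 21.4 ± 4.17 at 2 h (SD, n = 2). Its fold was 47.1 and 47.0 at 4 h and 43.6 and 41.4 at 8 h, and no 48 h list had a peak. The second lay 6818 bp upstream of Tchp, with 12 units and folds of 35.2 and 37.1 at 4 h. The third, with 14 units, had Atxn1 as its nearest gene at 128973 bp, with folds of 24.2 and 23.3 at 4 h.

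NANOG and SOX2 at later times show whether members stayed without them. No NANOG or SOX2 list at 4 or 8 h had a peak in 6848 members, 67.9%, against 20.4% of other regions. NANOG peaks lay in 5.17% and 5.25% of members at 4 h and 0.674% and 0.169% at 8 h. The same lists had peaks in 29.1% and 28.4% of other regions at 4 h and 4.93% and 3.6% at 8 h. SOX2 peaks lay in 21.6% and 7.55% of members at 4 h and 6.96% and 5.66% at 8 h, against 70.7% and 48.4%, and 29.2% and 26.1%, of other regions. Members were lower in 8 of 8 lists (mean difference -23.4 ± 15.8 percentage points, SD over lists, exact sign-flip permutation p = 0.00781, two-sided, the smallest possible, adjusted p = 0.0190). Within the fold bins the mean difference was -11.5 points and lower in each list. These are later measurements of the proteins that the rule used, in the same regions. Lower shares in members therefore follow in part from the choice of members. The p-value measures the spread between lists and is no independent support for a difference.

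Members with both NANOG 4 h peaks numbered 184 (1.82%, against 15.1% of all GATA6 2 h regions), and at 8 h there was 1 such member (against 1.07%). SOX2 had both 4 h peaks in 445 members (4.41%, against 35.6%) and both 8 h peaks in 257 (2.55%, against 14.9%). Among the 184 members with NANOG at 4 h, 108 held a tandem GATA repeat, and 175 held GATA6 in both 8 h lists. Among the 445 with SOX2 at 4 h, 40 held a repeat. The member with the highest NANOG 4 h fold, 11.8 and 15.0, lay 116460 bp from the TSS of Sall1 on chromosome 8 from 88927470 to 88928444 and had an array of 16 units. GATA6 was at folds of 20.7 and 34.7 there at 4 h and 33.2 and 31.4 at 8 h. The intronic Sh3gl3 member had the highest GATA6 folds at 4 h among the regions named here, 55.5 and 55.1, with NANOG at 12.9 and 12.4, and 7 GATA matches without an array. The member with the highest SOX2 4 h fold, 18.5 and 11.4, was on chromosome 1 from 12424363 to 12424977, 267594 bp upstream of Sulf1, with 4 GATA matches and no array. It had no GATA6 at 48 h, whereas the next, in an intron of Macrod2 and 36296 bp upstream of Flrt3, had GATA6 folds of 15.2 and 14.4 at 48 h and SOX17 folds of 17.9 and 14.3.

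GATA4 and SOX17, mapped at 24 h, were next compared at members. GATA4 peaks lay in 7.76% and 4.72% of members and SOX17 peaks in 12.3% and 18.3%. In other regions it was 11.9% and 7.25% for GATA4 and 32.6% and 41.2% for SOX17. Members were lower in 4 of 4 lists, by 12.4 ± 10.6 percentage points in the mean (SD, exact sign-flip permutation p = 0.125, adjusted p = 0.125), and 4 lists cannot give a smaller p. Among regions of like fold, GATA4 was 0.649 and 1.25 points higher in members, whereas SOX17 was 14.2 and 16.5 points lower. In the strongest fold bin, however, GATA4 was on 17.7% and 13.2% of members and on 23.6% and 16.9% of other regions. The SOX17 deficit within bins was mostly to regions that held NANOG or SOX2 at 0 h, with differences of -22.7 and -26.0 points. To regions with either factor at 2 h only, the SOX17 differences were -4.49 and -5.77 points. GATA4 held peaks of both lists in 395 members (3.92%, against 5.55% of all GATA6 2 h regions) and SOX17 in 1000 (9.91%, against 25.1%). SOX17 was on 13.2% of the 2773 members with a SOX word and on 8.68% of those without one.

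The factors met on few members. Of the 452 members with GATA6 in both 48 h lists, 225 held GATA4 and 304 held SOX17 in both lists, and 179 held both factors. Of the 2104 other regions with GATA6 in both 48 h lists, 1141 held GATA4 and 1887 held SOX17. All 6 later GATA6 lists and all 4 lists of GATA4 and SOX17 had a peak in 161 members, 1.60%, and in 1056 other regions, 3.04%. Of these 161 members, the 10 with the highest GATA6 48 h fold had 2 h folds of 4.68 to 11.5 and 48 h folds of 19.8 to 34.1, the second fixed by that choice.

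Among these 10, the region upstream of Rcor1 is shown above by its sequence. Rcor1 encodes a corepressor of transcription. The region had GATA6 folds of 8.72 and 3.76 at 2 h and 24.4 and 34.3 at 48 h. A further one lay 38580 bp upstream of Gata4 on chromosome 14 from 63283490 to 63284123. Its GATA6 fold was 6.08 and 5.98 at 2 h and 25.7 and 20.8 at 48 h, and its GATA4 fold was 17 and 9.49. A member 23697 bp upstream of Podxl, which encodes the sialomucin podocalyxin, showed an earlier course, with GATA6 folds of 15.2 and 17 at 4 h, 21.9 and 27.2 at 8 h, and 22.6 and 17.8 at 48 h. It held NANOG at 4 h, with folds of 7.29 and 5.69, and SOX2 at 12.5 and 6.10. Of these 10 members, 6 had a GATA match within 100 bp, 2 had NANOG and 3 had SOX2 in both 4 h lists. The 10 members with the highest 2 h fold, a choice that sets their 2 h values, had folds of 21.7 to 33.7 at 2 h and held GATA6 in both lists at 4 and at 8 h, while 2 of them did at 48 h and 1 held SOX17 in both lists. The strongest lay in an intron of Cd180, a receptor of B cells, on chromosome 13 from 102699677 to 102701082. It had GATA6 folds of 36.2 and 42.3 at 4 h and of 30.5 and 39.1 at 8 h, and no peak at 48 h. The second, in a coding exon of G3bp1, which encodes an RNA-binding protein of stress granules, had 32.3 and 31.3 at 4 h, 12.3 and 22.0 at 8 h, and 4.23 and 4.94 at 48 h.

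Members were then assigned to the nearest protein-coding TSS within 50 kb, and gene groups were compared by counts. Over all GATA6 2 h regions 22.5% were members. Near the 15 PrE regulators lay 62 GATA6 2 h regions, of which 20 were members, at 12 of the genes. Of these 20 members, 13 kept GATA6 in both 4 h lists, 11 in both 8 h lists and 10 in both 48 h lists. SOX17 held 9 of them and GATA4 held 7, each in both lists. Over all GATA6 2 h regions 5.71% held GATA6 in both 48 h lists, while 25.1% held SOX17 and 5.55% GATA4 in both lists. Of the 42 other regions near the same genes, 12 held GATA6 at 48 h, 27 held SOX17 and 8 held GATA4. These counts are small and were not tested. Near the 22 membrane and matrix genes of the PrE lay 37 members of 109 regions, of which 6 held GATA6 at 48 h and 6 held SOX17 in both lists. Of the 72 other regions near these genes, 21 held GATA6 at 48 h and 38 held SOX17. Near the 20 pluripotency genes lay 46 members of 170 regions, of which 19 kept GATA6 in both 4 h lists, 10 in both 8 h lists and 1 in both 48 h lists. Over all GATA6 2 h regions these shares were 63.8%, 38% and 5.71%, and a single member at 48 h is too few to set apart from the last.

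Genes at which GATA factors act in other tissues, and genes of the visceral endoderm, had members as well. Over all GATA6 2 h regions 22.5% were members, 38% held GATA6 in both 8 h lists and 5.71% in both 48 h lists. The counts that follow are small and were not tested against these shares. The share of members was 53.8% near cardiac genes and 57.1% near genes of the visceral endoderm. It was 23.4% near blood genes, 29.3% near trophoblast genes and 20% near neural and muscle genes. Near the 15 cardiac genes 14 of 26 regions were members, and 6 of them held GATA6 at 8 h and none at 48 h. Near the 16 blood genes it was 11 of 47 regions, with 5 held at 8 h and 1 at 48 h. Near the 10 trophoblast genes it was 17 of 58, with 4 at 8 h and none at 48 h. Near 12 genes of the visceral endoderm, most of them for serum proteins, 4 of 7 regions were members, with 3 held at 8 h and 1 at 48 h. Of these members 2 lay near Ttr, and 1 each near Amot and Cer1, which are not serum protein genes. The 10 neural and muscle genes, taken as a comparison, had 3 members of 15 regions, with 1 held at 8 h and none at 48 h.

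Single members at PrE genes showed these courses. The strongest member near Sox17, on chromosome 1 from 4474250 to 4475006, had GATA6 folds of 4.96 and 9.27 at 2 h, 13.6 and 9.96 at 4 h, 13.7 and 15.9 at 8 h, and 13.0 and 12.1 at 48 h. SOX17 itself had folds of 9.14 and 15.5 there. At Hhex, which encodes a homeobox factor of the endoderm, the member lay 217 bp downstream of the TSS, with GATA6 folds of 8.79 and 8.53 at 2 h and 7.92 and 5.07 at 48 h. The member 24608 bp upstream of the forkhead gene Foxq1 had 5.71 and 4.30 at 2 h and 12.3 and 17.2 at 48 h, with SOX17 folds of 27 and 33.8. Upstream of Cubn, which encodes the endocytic receptor cubilin, a member had GATA6 folds of 7.04 and 6.16 at 2 h and 17.4 and 15.4 at 48 h, and SOX17 folds of 33.2 and 39.2. The member 3571 bp upstream of Col4a2, in an intron of the adjacent collagen gene Col4a1, had 9.97 and 7.03 at 2 h, 9.86 and 7.34 at 48 h, and SOX17 folds of 68.5 and 68.0.

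Single members at pluripotency and cardiac genes follow. The strongest member near Nanog, 12106 bp upstream of the TSS on chromosome 6 from 122695156 to 122695770, had GATA6 folds of 12.0 and 15.6 at 2 h and 7.49 and 7.60 at 4 h, a peak in 1 list at 8 h and none at 48 h. At Esrrb, which encodes an orphan nuclear receptor of naive ES cells, 7 of 29 regions were members. The strongest had folds of 11.1 and 8.05 at 2 h and 3.96 and 4.75 at 4 h, a peak in 1 list each at 8 and 48 h, and SOX17 folds of 5.55 and 14.1. Klf5, a Krüppel-like factor gene, had 12 members among 23 regions, and the strongest held an array of 17 GATA units, with folds of 12.0 and 14.7 at 4 h and none at 48 h. Upstream of Myh7, a cardiac myosin gene, a member had folds of 9.22 and 10.3 at 2 h and of 5.92 and 5.96 at 8 h.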

How the data were processed

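Peak lists of 30 of the 57 samples, 2 in each of 15 groups, were analysed, and 27 samples (histone marks, control antibody, blastocysts) were not analysed here. The authors aligned reads to mm10 with Bowtie2, removed blacklisted reads, kept duplicates and called narrow peaks per library with MACS against an anti-rabbit control. The deposited files give the fold enrichment at the summit, a ratio, and the −log10 p-value and −log10 q-value of each peak. Every deposited peak had a q-value of 0.05 or less. The members and gene lists were chosen with earlier results of these data known.

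Overlaps needed 1 bp. The time in the file name was used for GATA6. Fragments over a background base were solved from fold and p-value jointly, searching 30 frequent combinations per list and accepting whole fragments within 0.02%, which failed for GATA4. Summits were those of the GATA6 2 h peak with the highest −log10 q. Matches were counted in the GRCm38.p6 sequence of RefSeq, the same build: last peaks lay inside all 22 chromosomes. TSSs came from GENCODE vM21 basic. Sequence windows were widened from 101 to 300 bases after matches were seen away from the summit. A tandem repeat had at least 5 units. Named regions were the 10 strongest members, the 10 with the highest 48 h fold among those in all 10 later GATA6, GATA4 and SOX17 lists, the 3 strongest without later GATA6, the 3 strongest for NANOG and for SOX2 at 4 h, the 3 strongest with a repeat, and the strongest per listed gene. A selection of these is given, and some are not reported here.

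Lists, not regions, are the replicates, and the labels do not say whether they came from separate cultures, so p-values measure the spread between lists. Tests were exact permutation tests with Benjamini-Hochberg adjustment over 4 tests, in Python 3.11.15 with numpy 2.4.6 and scipy 1.17.1, tested on simulated data. Alternatives were other rules for members, stricter peaks, a 500 bp margin, fold bins, other windows, a replicate block and leaving out each list.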

Additional observations from a re-analysis of the deposited data

Results flagged for a closer look

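Among regions of like GATA6 2 h fold, members differed from other regions in opposite directions for the PrE factors mapped at 24 h. Both GATA4 lists had more peaks in members, by a mean of 0.948 percentage points, and both SOX17 lists had fewer, with a mean difference of -15.4 points. The surplus of GATA4 was not present in every bin: in the strongest, 17.7% and 13.2% of members and 23.6% and 16.9% of other regions held it, and in the second weakest replicate 1 had 5.72% and 5.79%. The gap between the factors was 16.3 points. Other regions weighted to the members' fold bins held GATA4 in 7.11% and 3.47% and SOX17 in 26.5% and 34.8%. A deficit as large as that of SOX17 was thus not possible for GATA4. The GATA4 lists had 8427 and 4006 peaks and the SOX17 lists 27328 and 41979, and the part of list length was not tested. To regions with NANOG or SOX2 at 2 h only, the SOX17 difference was -4.49 and -5.77 points. To regions with either at 0 h the SOX17 difference was -22.7 and -26.0 points, so most of the deficit came from these. The gap between the factors drew attention because the lists of GATA4 and those of SOX17 lay on opposite sides of 0. The difference between the factors was not tested.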

How the results depend on the processing

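Leaving out any list of the rule enlarged the set of members, to 10115 at the least, to 23839 without GATA6 2 h replicate 1 and to 32623 without replicate 2. It held 21982 regions when only NANOG and SOX2 regions found in both replicates removed a region, 44162 when a peak of either GATA6 2 h list sufficed, and 1544 with the 10000 strongest peaks per list. The share of members with a GATA match, 65.7%, moved by more than its counting interval with all 11 alternatives other than leaving out a list, and with 4 of the 10 leave-outs. It was 60.3% with reproducible NANOG and SOX2 regions, 63.7% without NANOG and SOX2 also at 4 and 8 h, 51.9% with either GATA6 list, 66.7% with a 500 bp margin, 67.0% at a −log10 q of at least 5 and 71.1% with the strongest peaks. By the window or word it was 35% within 50 bp, 90.5% within 250 bp, 57.2% for GATAA and 81.6% for GATA, without tandem repeats 64.3%, and with a list left out 54.0% to 65.9%. The TSS-proximal share was 22.8% with reproducible regions, 20.0% with the margin, 7.94% within 1 kb, and 20.3% to 22.4% with a list left out.

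The comparison of members with other regions in later GATA6 lists changed direction under some alternatives. Against -6.67 points as reported, it was -2.92 at the stricter q (exact permutation p = 0.344), 4.69 with the strongest peaks (exact permutation p = 0.0938) and 7.86 within 5 fold bins. Of the alternatives chosen after seeing the data, 10 bins gave 8.33, and 5 bins without tandem repeats 6.91. With a list left out it was -19.5 without GATA6 2 h replicate 1 and up to -4.99 without GATA6 4 h replicate 1. Leaving out any of its 6 lists gave an exact permutation p of 0.0625, the smallest that 5 lists allow.

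GATA6 shares of members at 4 h exceeded those at 48 h by 55.3 points. By the times in the sample records this became -36.5, since the same lists then change places, and which times are right is not known. With a replicate block the value was again 55.3, with an exact permutation p of 0.0417 from a test that also includes the 0 h lists. The replicates share only a number, so this is no paired design. It was 28.4 without GATA6 2 h replicate 2, 30.9 without replicate 1 and at most 58.7 with another list left out, and 52.8 without tandem repeats. With GATA6 regions of either 2 h list it was 23.1. The mean over NANOG and SOX2, whose earlier peaks the rule used, was lower in members under all alternatives run (-31.9 to -11.5 points). So was the mean over GATA4 and SOX17 (-15.7 to -5.59), a test that cannot pass its threshold.

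A SOX2 peak needed 4 or 5 fragments and a NANOG peak 6 to 8 at background level, and a member lacks a called peak, not any binding. Peaks are calls against local background, lists of 1 factor differ in length, and fold is not comparable between antibodies.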
